A study of Mus musculus with 6 samples.

Results

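Mst1r and Met encode RON and MET, a pair of closely related receptor tyrosine kinases, and 9 genes of their signalling system were examined in liver tumors of C3H mice. The genes were taken by their known roles, with earlier results of these data known, and the study had itself picked Mst1r on these arrays. They are the receptors Mst1r and Met, the ligands Mst1 and Hgf, the ligand-activating serine proteases Hgfac, Hpn and St14, and the inhibitors of these proteases Spint1 and Spint2. All 9 were among the 22328 RefSeq-named genes on the array, where 12 probes measured them. The RNA came from 3 normal livers and 3 macroscopic liver tumors with a Ha-ras mutation. Both groups were male C3H/HeN mice of 74 to 75 weeks, descended as F2 from the untreated control arm of an arsenic project and kept on a standard diet, so that neither group had an agent or an engineered allele. Whether a tumor and a normal liver came from the same animal, or each tumor from a different mouse, is not given in the sources used here. The main p-values treat the samples as independent, which could not be checked. They set the group difference against the spread between these samples only.

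The ligands of both receptors are made as single-chain precursors that do not activate the kinase until a serine protease cuts them. Hepatocytes secrete the MST1 precursor (macrophage-stimulating protein) and the precursor of HGFAC into the blood, while in liver HGF is known mainly from stellate and endothelial cells. Hepsin (Hpn) and matriptase (St14) are membrane-bound proteases that cut both ligand precursors, and SPINT1 and SPINT2 are Kunitz-type inhibitors that block them. MET is known for hepatocyte growth and liver regeneration, and RON mainly from epithelia and resident macrophages.

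The probes of the members that changed, and of an inhibitor that did not pass the test, are shown first because each level below is the brightness of such a stretch. The Mst1r and Hgf entries are the first 30 bases of a 60-base probe, and the others are whole probes. Capitals in the Hgfac probe mark the 5 codons around the catalytic serine of the protease, which places this probe in the catalytic part.
Mst1r: cagcatgagccagtgacatttttgtagcat
Met: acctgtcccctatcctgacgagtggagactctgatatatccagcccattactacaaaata
Hgf: agtgtgtttgaagcatccatggatacatga
Hgfac: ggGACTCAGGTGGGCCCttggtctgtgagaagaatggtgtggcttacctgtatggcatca
Spint2: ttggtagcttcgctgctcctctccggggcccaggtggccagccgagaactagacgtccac

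The study asked how DNA methylation near gene starts relates to expression in these tumors, and Mst1r was one of its genes. RefSeq annotation of GRCm38.p6 gives Mst1r 2 start windows on the plus strand of chromosome 9. The sequence before each is shown with CpG sites in capitals, since CpG is the site of this methylation. The Mst1r region in which the study reported changed methylation lies inside the gene and in neither of these stretches. Methylation of the stretches shown was not tested here. The first, chr9:107906639-107906857, ends at the annotated gene start, and the second, chr9:107914753-107915002, precedes a start that lies 8145 bases inside the gene.
Mst1r upstream start: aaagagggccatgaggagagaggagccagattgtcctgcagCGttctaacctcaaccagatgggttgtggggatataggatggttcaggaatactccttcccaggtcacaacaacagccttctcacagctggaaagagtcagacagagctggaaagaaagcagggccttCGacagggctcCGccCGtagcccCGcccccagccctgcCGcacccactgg
Mst1r internal start: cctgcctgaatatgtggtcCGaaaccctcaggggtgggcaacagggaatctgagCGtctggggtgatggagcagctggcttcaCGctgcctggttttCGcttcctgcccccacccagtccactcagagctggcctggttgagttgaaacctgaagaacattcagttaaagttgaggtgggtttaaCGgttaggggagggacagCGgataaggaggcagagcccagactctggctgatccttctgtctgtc
Each stretch holds 6 CpG sites, over 219 bases in the first and 250 bases in the second. Counted over 250 bases like the others, the first window held 7, and the median over all 32841 start windows of that length was 6. The start windows of Met, Spint1 and Spint2 held 24, 26 and 24 CpG sites in 250 bases. By the annotated gene bounds the Spint1 window lies before its gene, the Met window lies inside its gene and the Spint2 window reaches into its gene. Mst1r lies on chromosome 9 from 107906858 to 107920383, and its ligand gene Mst1 on the same chromosome from 108080409 to 108085027, a gap of 160026 bases with 11 annotated genes between. The Mst1r probe begins at base 4557 of its transcript, on the side of the 3′ end, so it does not tell transcripts of the 2 starts apart.

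Total RNA was labelled with Cy3 and read on 1-color 60-base oligonucleotide arrays. An expression value is the processed signal of a probe divided by the 75th percentile of its array, so that 1.0 equals that percentile, and values of different probes are not set against each other. A log2 fold change is the tumor mean minus the normal mean of log2 expression values. The 75th percentile was 124 to 177 signal units in normal livers and 171 to 183 in tumors, the share of spots well above background ranged from 44.7% to 48.9%, and 0 spots were saturated. The normal livers were on one slide and the tumors on another, with a median local background of 42 to 45 against 22 to 23, so that tissue and slide cannot be told apart. Albumin (Alb), the defining transcript of hepatocytes, was bright in all samples, at 1923 to 2449 in normal livers and 2123 to 2221 in tumors.

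Among the 8 members that could be tested, Mst1r, Met and Hgfac rose in the liver tumors, Hgf fell, and Mst1, Hpn, St14 and Spint2 did not pass limma's test at an adjusted p under 0.05. The 4 called members all changed by 2-fold or more. Of all 13483 genes tested, 36.9% were called, 14.6% as higher and 22.3% as lower, and calls with a change of 2-fold or more made up 8.51% as higher and 7.31% as lower. The groups did not overlap for 6 of the 8 members, 4 higher and 2 lower in tumors, against 55.7% of all genes tested, 20.0% higher and 35.6% lower. Counted by probe, 33.1% of 24898 tested probes were called. The median log2 fold change was 0.50 over the 8 members and -0.14 over all genes tested. Spint1 did not pass the filter on dim probes and was not tested.

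**Figure D1:**
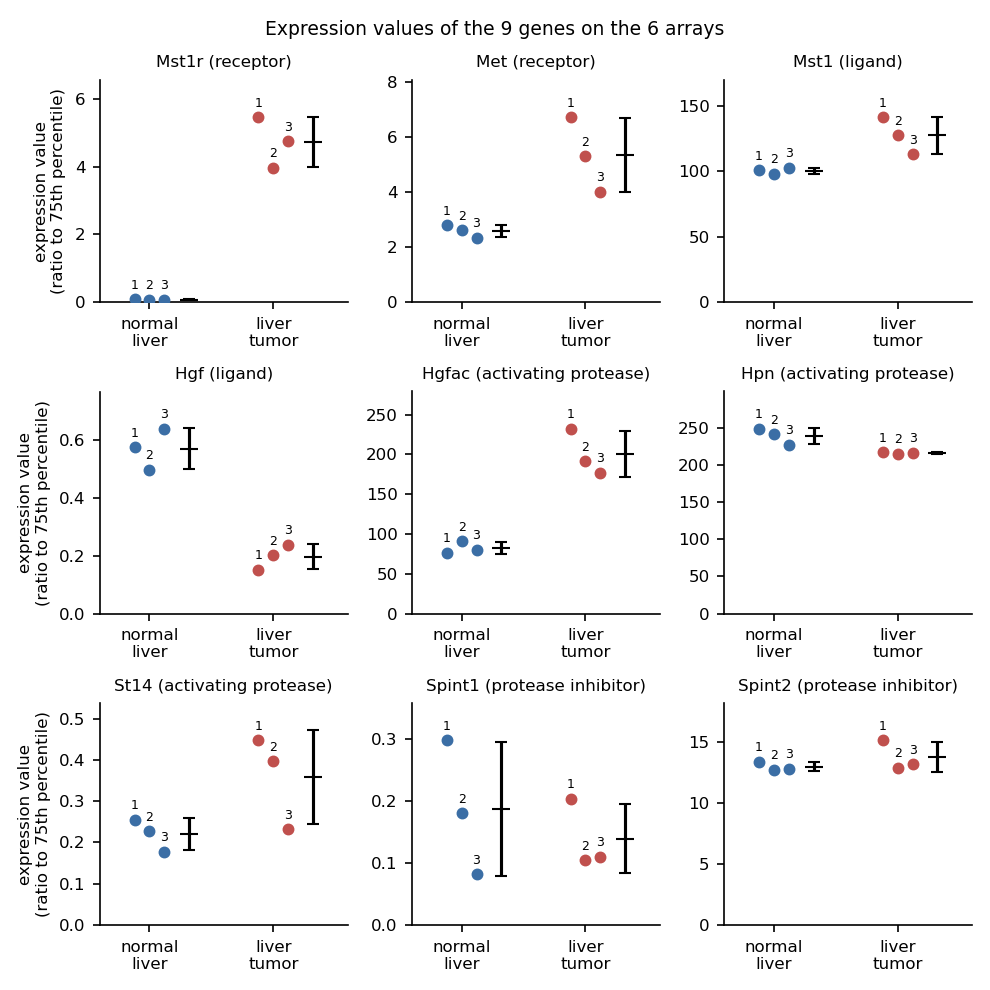
Expression values (vertical axis, ratio to the 75th percentile of the array, linear scale from 0) of the 9 genes in the 3 normal livers (blue) and 3 liver tumors (red). Numbers are replicates, and the bars show mean and SD of each group. Mst1r lies near 0 in normal livers and at 3.98 to 5.48 in tumors, Met and Hgfac are higher and Hgf is lower in every tumor than in every normal liver, and St14, Spint1 and Spint2 overlap.

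Mst1r, the receptor for MST1, was read by 10 spots of probe A_51_P110672 on every array. Its expression value was 0.0777, 0.0684 and 0.0729 in the normal livers and 5.48, 3.98 and 4.77 in the tumors. All 3 tumors were far above all normal livers, on none of which the probe was well above background. The means were 0.0730 ± 0.0046 (SD, n = 3) in normal livers and 4.74 ± 0.75 (SD, n = 3) in tumors. With the normal livers at the lowest value among probes well above background on their arrays, the tumors exceeded them in Mst1r by at least 36.2-fold, or 5.18 on the log2 scale, and limma's adjusted p was 9.15e-06 on these near-background normal values. The probe passed the filter on dim probes through the tumors alone. The fitted log2 fold change was 6.01 (standard error 0.15), which rests on signals near background. After normexp background correction, where an offset lifts all dim spots, it was 3.37.

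The 10 spots give an error within each array for both receptors. In the normal livers 0, 1 and 2 of the 10 Mst1r spots were well above background, and the spots had a coefficient of variation of 42.4% to 46.1%. In the tumors all 10 were well above background, with 5.15% to 7.16%. The tumors differed from each other more than their spots did, with a coefficient of variation between tumors of 15.8%, and the lowest spot of tumor 1, at 4.77, lay above the highest of tumor 2, at 4.34.

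**Figure D2:**
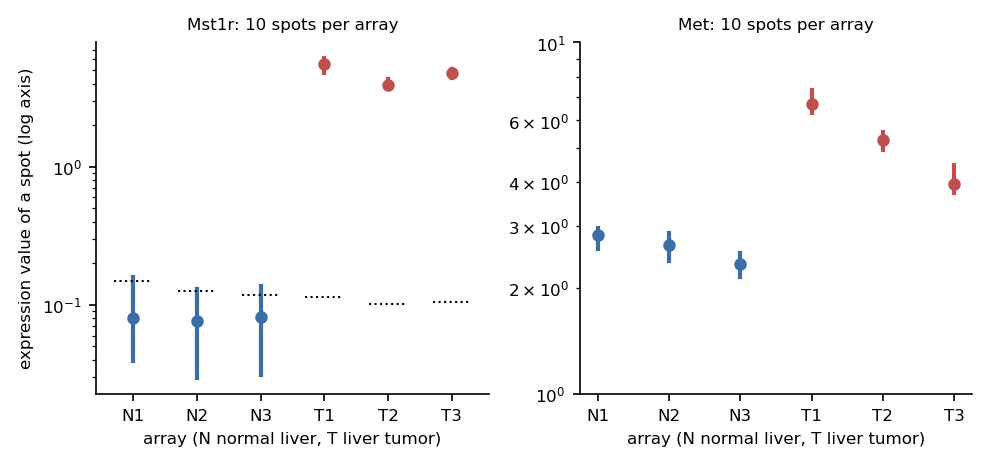
Expression values of the 10 spots of Mst1r (left) and Met (right) on each array, on log axes with different ranges. Points are the median spot, and vertical lines run from the lowest to the highest spot. Dotted lines, drawn for Mst1r only, mark the lowest expression value among probes well above background on that array. For Mst1r the median spot of each normal liver lies below the dotted line, while for Met the spots of each tumor lie above those of every normal liver.

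Met, the receptor for HGF, was expressed above background in all 6 samples and rose in the tumors. Its probe, A_51_P103929, read 2.80, 2.62 and 2.35 in the normal livers and 6.74, 5.31 and 4.02 in the tumors. The lowest tumor, tumor 3, was above the highest normal liver, and even its lowest spot, at 3.72, was above the highest spot of any normal liver, at 2.97. The means were 2.59 ± 0.23 (SD, n = 3) and 5.36 ± 1.36 (SD, n = 3), a rise of 1.02 on the log2 scale (standard error 0.20, 95% interval 0.54 to 1.504, limma's adjusted p = 0.0118). The Met spots of an array varied by 3.49% to 6.49%, while the tumors varied by 25.4%. The call held with any 1 array left out, with log2 fold changes of 0.84 to 1.21. Met was not called by the unpaired form of the methods' t-test after adjustment (adjusted p = 0.0808).

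The changes of both receptor genes were then compared directly. Within an array, log2 Mst1r minus log2 Met was 4.99 higher in tumors than in normal livers (SD between replicates 0.27), without overlap of the groups. The two-sided exact permutation p was 0.1, and no split of 6 arrays into equal groups can go below this. Over 8 such comparisons between members, the adjusted p was 0.16. The size depends on the near-background Mst1r signals and was 2.40 with normexp.

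The ligands went in opposite directions in value, and only Hgf passed the test. The Hgf probe A_51_P484998 was dim but well above background on all arrays. It read 0.575, 0.498 and 0.641 in the normal livers and 0.152, 0.202 and 0.238 in the tumors. Every tumor was lower than every normal liver, with tumor 1 the lowest. The means were 0.572 ± 0.072 (SD, n = 3) in normal livers and 0.197 ± 0.043 (SD, n = 3) in tumors, and Hgf fell by 1.55 on the log2 scale (standard error 0.19, 95% interval -2.01 to -1.09, limma's adjusted p = 0.00279). With normexp the fall was 0.80 on the log2 scale and still called.

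Markers of stellate cells, one of the known Hgf sources in liver, and of macrophages were more often called lower than higher. Called were 68.75% of the tested markers of stellate cells and fibroblasts, 69.2% of the macrophage markers and 33.3% of the endothelial markers. Over all genes tested 36.9% were called, 14.6% as higher and 22.3% as lower, so the endothelial share was near that of all genes. Of 16 tested markers of stellate cells and fibroblasts, 9 fell and 2 rose, while 10 had values below 0 and 6 above. Their median log2 fold change was -0.81, and their summed expression value was 187 to 210.1 in normal livers and 49.95 to 97.7 in tumors. Lrat, the enzyme that stores vitamin A in stellate cells, fell by 1.83 on the log2 scale, the transcription factor Hand2 by 1.96 and the list's brightest markers, decorin (Dcn) and Ecm1, by 1.64 and 1.71, while the collagen gene Col1a1 rose by 1.58. With quantile normalization 9 fell and with spike-in scaling 8 fell. Of 13 tested markers of macrophages and Kupffer cells 9 fell and 0 rose with limma (0 rose at an unadjusted p under 0.05 as well), where the 4 others also had values below 0. The count that fell was 3 without tumor 2, 4 without tumor 3 or normal liver 1, 5 without normal liver 3 or with quantile normalization, 6 with spike-in scaling and 12 without tumor 1. The brightest markers, Cd5l and the receptor Csf1r, fell by 1.08 and 0.81 on the log2 scale, and the summed expression value of the list was 123 to 210.0 in normal livers and 64.3 to 106 in tumors. Of 12 tested endothelial markers 3 fell, 1 rose and 8 were not called, with a median log2 fold change of -0.05. With spike-in scaling 0 fell and 2 rose, so that the balance of these calls depended on scaling, and without tumor 2 or normal liver 3, 2 fell and 0 rose. The endothelial lectin Clec4g fell by 0.49, and Kdr, a receptor for VEGF, averaged 28.2 in normal livers and 28.0 in tumors. The part of these cells in the Hgf result was not tested, and in bulk tissue fewer cells of a type and less RNA per cell cannot be told apart.

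Mst1, the ligand of RON, was bright in every sample. Probe A_55_P1984098 read 100.4, 98.0 and 103 in the normal livers and 141, 127 and 113 in the tumors. All tumors were above all normal livers, with tumor 3 closest to them. The log2 fold change was 0.34 (standard error 0.12, 95% interval 0.05 to 0.63) and missed the threshold (limma's adjusted p = 0.0730). The second probe, A_55_P2115392, averaged 86.8 ± 2.4 (SD, n = 3) and 114 ± 14 (SD, n = 3), a log2 fold change of 0.39 (limma's adjusted p = 0.0522). Mst1 was called with quantile normalization (0.55), with normexp (0.39) and when limma's prior variance followed a trend.
The Mst1 probes overlap by 50 bases and differ within that overlap by T40C, counted from 1 at the 5′ end of the second probe and written from it to the first. The stretches around this base, in capitals, are shown because the probes are nearly the same sequence and are not independent readings of Mst1.
A_55_P2115392: atgtcaagacttTtcaaacataaag
A_55_P1984098: atgtcaagacttCtcaaacataaag

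Within an array, log2 Mst1 minus log2 Hgf was 1.89 higher in tumors than in normal livers (SD between replicates 0.36), without overlap, with an exact permutation p = 0.1 and an adjusted p of 0.16. With normexp this difference of changes was 1.18. Beside the called rise of Mst1r, its ligand gene Mst1 had a fitted ratio of 1.26. Beside the called rise of Met, its ligand gene Hgf fell 2.93-fold.

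**Figure D3:**
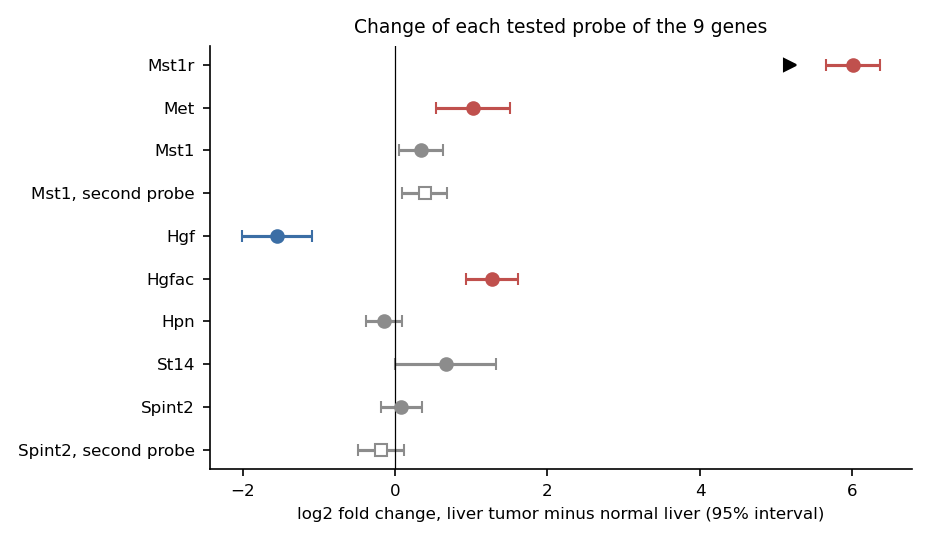
Log2 fold change of each tested probe of the 9 genes (horizontal axis, liver tumor minus normal liver), with limma's 95% interval as bars. Red marks called as higher, blue called as lower and grey not called; open squares are second probes, and the black triangle is the lower bound of Mst1r, at 5.18. Hgf lies at -1.55, Met and Hgfac lie at 1.02 and 1.27, and the intervals of Hpn and Spint2 include 0.

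The activating proteases did not move together. Hgfac, a secreted protease of hepatocytes that cuts the HGF precursor, rose in the tumors. Its probe, A_51_P101545, read 76.7, 91.1 and 80.3 in the normal livers and 233, 192 and 177 in the tumors. The groups did not overlap, and tumor 1 was again the highest. Means of 82.7 ± 7.5 (SD, n = 3) and 200.4 ± 28.8 (SD, n = 3) made the rise 1.27 on the log2 scale (standard error 0.14, 95% interval 0.93 to 1.62, limma's adjusted p = 0.00202). It was called without any 1 array, with 1.16 to 1.36.

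Hpn, the membrane-bound protease hepsin of hepatocytes, was bright in both groups. It read 249.6, 242 and 228 in the normal livers and 218, 215 and 217 in the tumors. The tumors lay just below the lowest normal liver and within 1.01-fold of each other. The log2 fold change was -0.15 (standard error 0.10, 95% interval -0.38 to 0.09, limma's adjusted p = 0.302), and it was 0.04 with quantile normalization.

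St14, matriptase, was dim. It read 0.255, 0.228 and 0.178 in the normal livers and 0.448, 0.397 and 0.232 in the tumors. Tumors 1 and 2 were above all normal livers, and tumor 3 lay within their range. The log2 fold change was 0.66 (standard error 0.28, 95% interval 0.00278 to 1.32, limma's adjusted p = 0.110). Without tumor 3 it was 0.95 and called (limma's adjusted p = 0.0193), so this call turns on 1 array, and with normexp it was 0.22.

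The inhibitors showed no called change. For Spint2, probe A_55_P2111713 read 13.4, 12.7 and 12.8 in the normal livers and 15.2, 12.9 and 13.2 in the tumors. The groups overlapped, since tumor 1 alone stood apart. The log2 fold change was 0.08 (standard error 0.11, 95% interval -0.19 to 0.35, limma's adjusted p = 0.624). A second Spint2 probe, A_66_P124011, shares no base with the first and gave -0.18 (limma's adjusted p = 0.310), so that the mean of both probes was -0.05. The interval of either probe leaves out a 2-fold change.

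Spint1 was close to background. Its brighter probe read 0.298, 0.180 and 0.0817 in the normal livers and 0.203, 0.104 and 0.110 in the tumors. It was well above background in 2 normal livers and 1 tumor, and the second Spint1 probe was so on no array. The log2 difference of the brighter probe was -0.30 with an SD between replicates of 0.76, and 0.13 without normal liver 1. A change of Spint1 was not detectable at this signal.

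The changes of the proteases were set against those of the inhibitors within each array. Hgfac minus Spint2 was 1.19 higher in tumors on the log2 scale (SD between replicates 0.13), with 2.52 to 2.84 in normal livers and 3.75 to 3.94 in tumors. Hpn minus Spint2 differed by -0.22, also without overlap, and St14 minus Spint2 by 0.58 with overlap. Each non-overlapping comparison had an exact permutation p = 0.1 and an adjusted p of 0.16, and St14 against Spint2 had an exact permutation p = 0.3. Against Spint1 the differences of log2 changes were 1.57 for Hgfac, 0.16 for Hpn and 0.97 for St14, with SDs of 0.58 to 0.73 that come with the near-background Spint1 values.

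**Figure D4:**
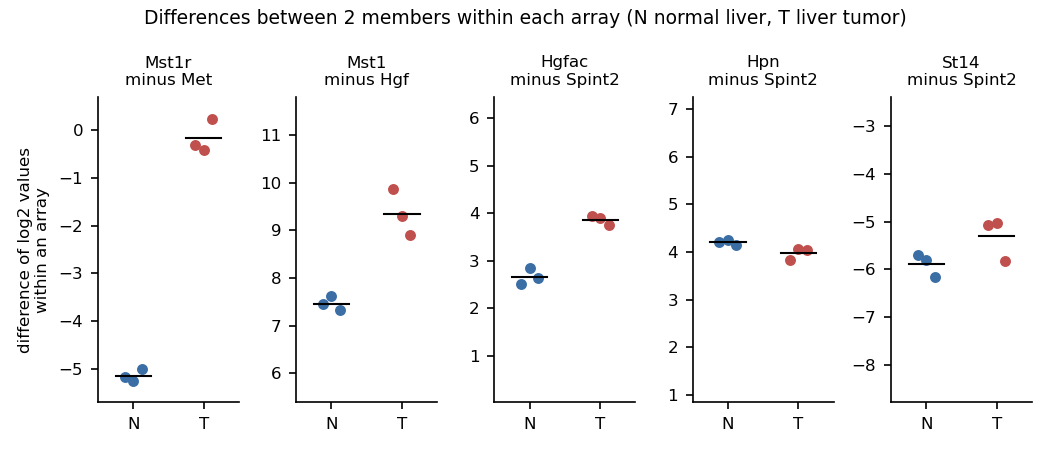
Difference of log2 expression values between 2 members within each array (vertical axis, log2 units), for normal livers (N, blue) and liver tumors (T, red), with group means as lines. The height of a panel's points reflects the brightness of the probes and only the shift between N and T is read: 4.99 for Mst1r minus Met, 1.89 for Mst1 minus Hgf, 1.19 for Hgfac minus Spint2, -0.22 for Hpn minus Spint2 and 0.58 for St14 minus Spint2.

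The tumors were not alike in these genes. Tumor 1 held the highest tumor value of 8 of the 9 members, and the lowest of Hgf. These 8 include Hpn, almost equal in all tumors, and Spint1, well above background in tumor 1 alone. Each tumor was read on a single array, so differences between tumors and between arrays cannot be told apart. Tumor 3 held the lowest tumor value of Met, Mst1, Hgfac and St14. Between the highest and the lowest tumor, Met differed by 1.68-fold, Hgf by 1.56-fold, St14 by 1.94-fold, Mst1r by 1.38-fold and Hpn by 1.01-fold.

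The genes whose log2 values ran most like those of Mst1r over the 6 arrays were Ano10, Bex2, Irx3, Anxa2 and Inava, with Pearson's r of 0.9992 to 0.9998. Ano10, a TMEM16 family member, rose by 1.68 on the log2 scale, and Anxa2, annexin A2, by 2.97, and both were well above background in every normal liver. The others, like Mst1r, were well above background in no normal liver and were higher by at least 32.3-fold for Bex2, at least 17.6-fold for the homeobox gene Irx3 and at least 71.9-fold for Inava. An r near 1 mostly reflects the difference between the groups, since 970 of 13477 genes had an r above 0.95.

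The rest of the pathway was read from 5 lists of 94 genes. Of these 73 were tested and 34, or 46.6%, were called, 13 as higher and 21 as lower. Over all genes tested 36.9% were called, 14.6% as higher and 22.3% as lower. In the order of the lists below, 25.9%, 47.1%, 100%, 40% and 66.7% of the tested genes were called. Among 27 tested adaptors, effectors and turnover genes of MET and RON, 6 fell and 1 rose, and the median log2 fold change was -0.15. The falls included the exchange factor Sos1, which was well above background in 1 tumor, by 1.17, Pik3r1, the regulatory subunit of PI3-kinase, by 0.86, phospholipase Plcg1 by 0.63 and the PI3-kinase subunit Pik3cb by 0.58, and the adaptor Shc1 rose by 0.39. The docking protein Gab1, the adaptor Grb2 and the effector Stat3 were not called. The balance in this list depended on scaling, with 2 higher and 4 lower under quantile normalization and 0 higher and 2 lower under spike-in scaling. It also depended on single arrays, since 3 in place of 7 were called without tumor 2 or normal liver 2 and 4 without tumor 1, normal liver 1 or normal liver 3.

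Among 17 tested co-receptors and semaphorin-plexin relatives, 5 rose and 3 fell, with a median of -0.04. E-cadherin (Cdh1) averaged 1.77 ± 0.87 (SD, n = 3) in normal livers, read 14.2, 13.6 and 17.2 in the tumors and rose by 3.21 on the log2 scale. Integrin alpha 6 (Itga6), the partner of a MET-binding integrin, rose by 2.62 and Plxnb1, a semaphorin receptor that associates with MET and RON, by 1.96. The neuropilins Nrp1 and Nrp2 fell by 1.22 and 0.88. Cdh1, Itga6, Plxnb1 and Nrp1 kept their directions and calls under normexp, quantile normalization and spike-in scaling. Without normal liver 2, 5 genes of this list were called.

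Of 18 other type II transmembrane proteases and their partners, 10 were above background on no array, and all 7 that were tested were called, 2 as higher and 5 as lower. Without normal liver 1, normal liver 2 or tumor 2, and also without the filter, 4 were called, 2 in each direction. Prostasin (Prss8), a partner protease of matriptase, averaged 0.434 ± 0.101 (SD, n = 3) and 2.09 ± 0.40 (SD, n = 3) and rose by 2.27 on the log2 scale, and Tmprss3 rose by 1.73. Tmprss6, the hepatocyte protease that restrains hepcidin, fell by 0.56 and Corin by 2.36, and Tmprss4 was at least 2.76-fold lower. Corin was well above background in 2 of the 3 tumors, and it was not called without normal liver 1, normal liver 2, normal liver 3 or tumor 2. Of 10 tested kringle-type and contact-phase proteases, Masp1 fell by 1.15, plasma kallikrein (Klkb1) by 0.88 and plasminogen (Plg) by 0.33, and the plasminogen activator Plat, not well above background in normal livers, was at least 1.32-fold higher. Plg was close to the threshold (limma's adjusted p = 0.0468). Lower calls in this list were 2 in place of 3 with normexp, quantile normalization, spike-in scaling or no filter. The same held with any 1 array left out, and with normexp 0 were called higher.

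Of 12 tested other inhibitors, 4 rose and 4 fell, and 5 were called without normal liver 2 or tumor 2. The trypsin inhibitor Spink1 averaged 0.556 ± 0.299 (SD, n = 3) in normal livers, read 160.4, 124 and 53.0 in the tumors and rose by 7.65 on the log2 scale. The C1 inhibitor Serping1 fell by 1.12 and Serpine2, well above background in 2 of the 3 tumors, by 2.33. Serpina5, an inhibitor of activated protein C and of HGFAC, was at least 2.07-fold lower.

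**Figure D5:**
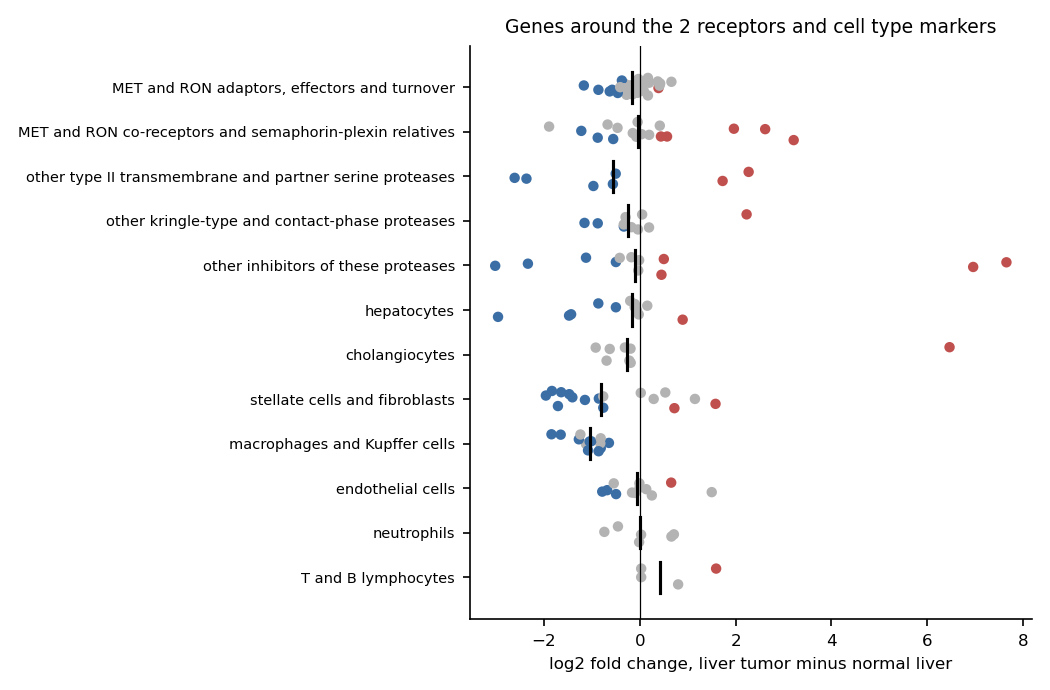
Log2 fold change (horizontal axis, liver tumor minus normal liver) of each tested gene in the 5 pathway lists and 7 cell type lists; red was called as higher, blue as lower and grey was not called, and black lines are medians. Spink1 and Prom1 lie beyond 6, and the markers of macrophages lie wholly below 0.

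Markers of other cells that could carry Mst1r or Met were read beside them. Over all genes tested 36.9% were called, 14.6% as higher and 22.3% as lower. Of 8 tested cholangiocyte markers 1 was called, Prom1, which rose by 6.46 on the log2 scale from 0.316 ± 0.022 (SD, n = 3) to 28.1 ± 4.2 (SD, n = 3). The cholangiocyte keratin Krt19 read 0.265 to 0.356 in normal livers and 0.134 to 0.377 in tumors, Sox9 was at 0.389 to 0.596 and 0.378 to 0.501, and Muc1 and Ggt1 were above background on no array. The other 7 tested markers all had values below 0 and were not called, among them the brightest, the water channel Aqp1, at 42.5 in normal livers and 34.1 in tumors. The summed expression value of the list was 40.1 to 51.7 in normal livers and 59.7 to 70.2 in tumors, and without Prom1 it was 39.8 to 51.4 and 34.2 to 38.3. The part of these cells in the Mst1r and Met results was not tested, and the macrophage markers, from cells known for RON, are given above. Of 12 tested hepatocyte markers 5 fell and 1 rose, with a summed expression value of 9818 to 10321 in normal livers and 8527 to 8817 in tumors, beside Hgfac, Hpn and Mst1. The median log2 fold change of these hepatocyte markers was -0.15 and depended on scaling. It was 0.06 with quantile normalization, where 3 fell, and -0.02 with spike-in scaling, where 4 fell. Of 6 tested neutrophil markers 0 were called by limma, with 1 at an unadjusted p under 0.05. Of 4 tested lymphocyte markers 1 was called, Cd4, which rose by 1.59. All 4 had values above 0, but without normal liver 2 it was 2 above and 2 below. The summed expression value of the lymphocyte list, untested markers included, was 66.3 to 70.2 in normal livers and 141 to 245 in tumors.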

How the data were processed

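Per the file headers, Feature Extraction 10.7.3.1 produced the scanner output deposited for each array, and the submitters' processing notes name version 12.0.3.1. The authors' processed signal intensities had the background subtracted and a spatial trend removed, and the deposited table holds the same intensities as a ratio to the array's 75th percentile. Here log2 of the deposited intensity minus log2 of that percentile over all 62976 spots was used, without control and outlier spots. Subtraction makes dim probes imprecise. Where a probe was well above background on no array of a group, a bound against each array's lowest probe well above background is given. Other dim probes keep the fitted change, also where single arrays of a group were not well above background. Spots of a probe were averaged, and a gene was represented by its brightest probe. The filter required a probe to be well above background on all 3 arrays of a group, which 24898 of 55681 probes met. Groups were taken from the sample labels and compared with limma 3.58.1 in R 4.3.3 (lmFit and eBayes, two-sided, Benjamini-Hochberg, threshold 0.05) and, for differences between members, with exact permutation tests over arrays in scipy 1.17.1. The other software was Python 3.11.15, pandas 2.3.3, numpy 2.4.6 and matplotlib 3.10.9. The number of arrays limits the precision.

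Probes were named through RefSeq annotation of GRCm38.p6, by accession for 27235, symbol for 3581 and synonym for 565 probes, and 24300 kept the design's name. Start windows are from RefSeq on the same build, and probe sequences are from the deposited files. The members, the lists and the rule for named genes were chosen with earlier results of these data known. The rule takes the members, up to 4 called genes with the largest change in each pathway list, the 5 genes most like Mst1r, and the 2 brightest and the undetected markers of cell types that bear on a member. Shc1, Nrp2, Tmprss6, Serping1 and further markers were named after their values were seen. The alternatives were normexp with an offset of 50, quantile normalization, the percentile without controls, spike-in scaling, the deposited ratios, no filter or a stricter one, the mean of a gene's probes, a trend in eBayes, a replicate block, paired and unpaired forms of the methods' t-test, and each array left out. The fit was tested on simulated data. Same-numbered normal livers and tumors deviated from their group means with correlations of 0.0663, 0.182 and 0.0548 over 21790 probes. The best other number gave 0.0549, 0.0817 and 0.0998. Such correlations cannot show whether a tumor and a normal liver came from the same animal. The methods name a paired t-test but do not say what was paired, so the numbers were not taken to pair the samples. Protein sequences were not used here. The value of 1 gene of the inhibitor list is not reported here.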

Additional observations from a re-analysis of the deposited data

How the results depend on the processing

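The calls of Mst1r, Hgf and Hgfac were kept under every alternative that tested them except the paired form of the methods' t-test (the stricter filter left Mst1r untested), and that of Met under every one except its paired and unpaired forms. Paired by number, this test gave changes of 6.02 for Mst1r (adjusted p = 0.111), 1.05 for Met (adjusted p = 0.170), -1.53 for Hgf (adjusted p = 0.116) and 1.28 for Hgfac (adjusted p = 0.136) on the log2 scale, and called 0 members as higher, 0 as lower, 0 pathway genes and 0 of all probes. Unadjusted, at p under 0.05, it named 3 members (Mst1r, Hgf and Hgfac), 26 pathway genes and 7418 probes. Unpaired, it gave 1.05 for Met (adjusted p = 0.0808), called 5261 probes and, unadjusted, named 6 members (Mst1r, Met, Mst1, Hgf, Hgfac and Hpn), 39 pathway genes and 10068 probes. A replicate block in limma called St14 at an unchanged 0.66 (adjusted p = 0.0343) and changed no other member's call, and the numbers are not known to pair samples.

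Mst1 was called with a trend in eBayes at 0.34 (adjusted p = 0.0357), with normexp at 0.39 (adjusted p = 0.0341) and with quantile normalization at 0.55 (adjusted p = 0.0179), against adjusted p values up to 0.219 elsewhere. Hpn turned to 0.037 with quantile normalization and Spint2 to -0.051 as the mean of its probes, neither called. With normexp the difference of changes was 2.40 for Mst1r against Met, 1.18 for Mst1 against Hgf and 0.030 for St14 against Spint2. With 1 array left out, St14 ranged from 0.48 to 0.95, untested Spint1 from -0.80 to 0.13 (0.13 without normal liver 1) and Hpn against Spint1 from -0.25 to 0.62, being -0.25 without normal liver 1 and -0.01 without tumor 2. The cause of these shifts was not tested.

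All probes called numbered 8238, of which 3112 were higher and 5126 lower. Spike-in scaling, which shifts the median of all probes by 0.13 on the log2 scale, called 5061, with 2911 higher and 2150 lower. Without a filter, which more than doubles the probes tested, 4674 were called, and with 1 array left out 4954 (without normal liver 2) to 7172. The 34 called pathway genes became 20 without a filter, 21 with spike-in scaling and 20 (without normal liver 2) to 30 with 1 array left out, and 22 without tumor 2. Signal over background limits the values of Mst1r in normal livers, Hgf, St14 and Spint1.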
